A study of Homo sapiens with 3 samples.

Results

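Guides against the zinc, iron, copper and magnesium transporters of the solute carrier (SLC) superfamily were examined in a pooled CRISPR knockout screen. The members were all guides whose target symbol began with SLC30A, SLC39A, SLC11A, SLC31A, SLC40A or SLC41A. This rule took 320 of the 30197 guides listed, against 32 of 2978 genes, with 10 guides for each gene. The SLC30 family contributed 10 genes, SLC39 14, SLC11 2, SLC31 2, SLC40 1 and SLC41 3. Guides to the same gene share their target, so they are repeated probes of 1 knockout and not replicates of a condition.

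The screen used MIA PaCa-2 cells, a long-established human line of pancreatic ductal adenocarcinoma origin, and a lentiviral library aimed at metabolic genes. Infected cells were selected with puromycin and either collected at day 0 as the initial population, with no treatment, or cultured for 14 days in DMSO, the vehicle, or in apilimod, which inhibits the phosphoinositide kinase PIKfyve. The label gives apilimod at 200 nM, and a different concentration stands in the study's methods. Each group was 1 library of 1 cell line, so the spread among cultures is not known, and the tests compare these 3 libraries and not the conditions. The comparisons ask which metal transporters the cells needed to keep growing in culture, and whether that need differed while PIKfyve was inhibited.

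Metal ions cross membranes mainly through dedicated proteins, and cells keep the free ion in the cytosol scarce. SLC39 (ZIP) proteins carry zinc into the cytosol, from outside or from organelles, and SLC30 (ZnT) proteins carry it out, while SLC31 proteins move copper, SLC11 proteins and SLC40A1 move iron, and SLC41 proteins are linked to magnesium transport. Copper is a cofactor of cytochrome c oxidase in mitochondria, zinc of many enzymes and transcription factors, and iron of heme and iron-sulfur proteins. PIKfyve makes a phosphoinositide of late endosomes and lysosomes, organelles that also store and release metals.

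Total counts were 24695476 for the initial population, 26276517 for the DMSO library and 25599416 for the apilimod library. Members took 1.11% of the initial counts (95% Wilson interval 1.11 to 1.12%), 1.12% in DMSO (1.11 to 1.12%) and 1.10% in apilimod (1.10 to 1.10%). The median member guide had 687.5 counts at day 0, 745 in DMSO and 721.5 in apilimod. These intervals cover counting error only. They treat reads as independent draws, which PCR copies are not, so they may be too narrow even for that. Guides had to reach 100 counts at day 0 and genes had to keep 6 such guides. Of the members, 302 guides passed and 18 did not, and all 32 genes were scored, with 8 to 10 guides each. The score of a gene was the mean over its guides of the log2 change in share of the library, given below with its SD over guides. A gene was called lower or higher when its guides differed from 487 guides aimed at intergenic DNA, here the control guides. The test was the exact rank-sum test, two-sided, and the threshold an adjusted p under 0.05 by the Benjamini-Hochberg method over 2969 genes. The median control guide stood at 0.14 on the log2 scale in DMSO (SD 0.40 over guides) and at 0.22 in apilimod (SD 0.73). A guide below the control median could thus still be above its share at day 0.

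After 14 days in DMSO, 5 of 32 transporter genes were lower and 0 were higher, which is 15.6% of the members. Over all genes tested 18.9% were lower and 0.842% higher, and among the other SLC genes in the library 47 of 327 were lower. The 5 genes were the copper importer SLC31A1, the mitochondrial zinc exporter SLC30A9, the endoplasmic reticulum zinc transporter SLC39A7, the manganese exporter SLC30A10 and the vesicular zinc transporter SLC30A2. After 14 days in apilimod, 9 of 32 were lower and 0 higher, a share of 28.1% beside 29.0% lower and 0.236% higher over all genes. In both arms the share of members lower thus lay near the share of all genes. The apilimod list held SLC31A1, SLC30A9, SLC39A7 and SLC30A2 again, and SLC31A2, SLC30A1, SLC39A4, SLC11A1 and SLC39A13. Both arms were set against the same initial library, so the 4 genes named in both lists are not independent results. The remaining 22 genes were called in neither arm. The median member score was 0.02 on the log2 scale in DMSO, where that of all genes was -0.03, and -0.03 in apilimod, where that of all genes was -0.04. When all gene-targeting guides replaced the control guides as the null, 2 members were lower in each arm, SLC31A1 and SLC30A9, and the share of all genes lower was 7.48% in DMSO and 7.58% in apilimod.

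The copper transporters held the lowest score of the members in DMSO. SLC31A1, also called CTR1, is the main route by which copper enters cells. Its 10 guides summed to 12746 counts at day 0, 7806 in DMSO and 7110 in apilimod, although the DMSO and apilimod libraries were the deeper ones. The score was -1.06 ± 0.68 (SD, n = 10 guides) in DMSO, with 10 of 10 guides below the control median (adjusted p = 3.07e-09, exact rank-sum test). In apilimod it was -1.11 ± 0.81 (SD, n = 10 guides), with 9 of 10 guides below (adjusted p = 1.54e-05, exact rank-sum test). Both calls held under all 11 alternative settings tried for each arm, with scores from -1.10 to -0.91 in DMSO and from -1.41 to -1.03 in apilimod. Median-of-ratios normalization, the median over guides and the series table could not change these calls, since they left the ranks of the guides as they were.

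The SLC31A1 guides differed in size but not, in DMSO, in direction. Guide 8 had 1349 counts at day 0, 272 in DMSO and 583 in apilimod, and guide 6 had 1733, 515 and 574. Guide 5 was lower in apilimod than in DMSO, with 1509, 753 and 432 counts. The most abundant guides changed least in DMSO, guide 4 with 2870, 2453 and 1812 counts and guide 3 with 2299, 2126 and 1622. Guide 7 was the exception in apilimod. It had 628 counts at day 0, 523 in DMSO and 1089 in apilimod, a log2 change of 0.74 where the other 9 guides averaged -1.31.

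SLC31A2, or CTR2, is a related protein of endosomes and lysosomes that affects how cells take up and hold copper. On the hg38 build with GENCODE 44 annotation its gene lies at chr9:113150976-113164140 and SLC31A1 at chr9:113221544-113264492, both on the plus strand and 57403 bases apart. SLC31A2 summed to 8471 counts at day 0, 7994 in DMSO and 7097 in apilimod over 9 guides. Its mean score in DMSO, -0.84 ± 2.33 (SD, n = 9 guides), was not past the test (adjusted p = 0.214, exact rank-sum test) and came from 1 guide. Guide 2 went from 352 counts to 2 in DMSO and 27 in apilimod, and without it the score was -0.07 ± 0.42 (SD, n = 8 guides). With a minimum of 300 counts at day 0, which keeps guide 2, SLC31A2 was called lower in DMSO at -1.18 (adjusted p = 0.0312, exact rank-sum test). At 2 counts the share of guide 2 in DMSO was 0.00534 times that at day 0, with an exact 95% interval from counting of 0.000644 to 0.0194. This interval also treats PCR copies as independent draws. In apilimod the gene was lower at -0.72 ± 1.18 (SD, n = 9 guides), and 8 of 9 guides lay under the control median (adjusted p = 0.00142, exact rank-sum test). That score was -0.34 without guide 2, and the call ended with all gene-targeting guides as the null (adjusted p = 0.241, exact rank-sum test).

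Among the 10 exporters of zinc or manganese, 3 were lower in each arm, beside 18.9% of all genes in DMSO and 29.0% in apilimod. A difference between the exporters and all genes was not tested. SLC30A9 and SLC30A2 were lower in both, SLC30A10 in DMSO only and SLC30A1 in apilimod only. The remaining exporters were called in neither arm. SLC30A9, or ZnT9, exports zinc from the mitochondrial matrix and had the lowest member score in apilimod. Its 9 guides summed to 7227 counts at day 0, 4586 in DMSO and 2814 in apilimod. The score was -0.93 ± 0.77 (SD, n = 9 guides) in DMSO and -1.69 ± 1.40 (SD, n = 9 guides) in apilimod. All 9 guides were below the control median in both arms, with adjusted p-values of 1.29e-05 and 3.18e-08 (exact rank-sum test). Both calls held under all 11 alternatives, with scores between -1.01 and -0.80 in DMSO and between -1.85 and -1.31 in apilimod. Here too, the settings that keep the ranks of the guides could not change a call.

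Guide 3 of SLC30A9 was the most depleted, with 660 counts at day 0, 180 in DMSO and 26 in apilimod. Guide 9 followed with 602, 167 and 77, and guide 7 had 1011, 587 and 304. Guide 10, the most abundant, had 2154, 1689 and 934. Guide 2 moved in apilimod but hardly in DMSO, with 755, 771 and 419 counts. Guide 6 was as low in DMSO as in apilimod, with 617, 211 and 205 counts. Guide 1 stayed close to its starting level in both, with 419, 413 and 381. Guide 4 started at 87 counts and was left out by the count minimum, but it went the same way, to 53 in DMSO and 11 in apilimod.

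SLC30A2, which loads zinc into secretory vesicles and lysosomes, had a score nearer to 0. It summed to 10505 counts at day 0, 9201 in DMSO and 8301 in apilimod. The score was -0.28 ± 0.47 (SD, n = 10 guides) in DMSO, with 8 guides below the control median (adjusted p = 0.0341, exact rank-sum test), and -0.35 ± 0.42 (SD, n = 10 guides) in apilimod, with 10 below (adjusted p = 0.00257, exact rank-sum test). Its most abundant guide, guide 5, had 2340 counts at day 0, 1405 in DMSO and 1510 in apilimod. Neither call held with all gene-targeting guides as the null.

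SLC30A10 exports manganese from the cell. It summed to 9628 counts at day 0, 8803 in DMSO and 8545 in apilimod. The score in DMSO was -0.37 ± 0.73 (SD, n = 10 guides), and 9 guides lay under the control median (adjusted p = 0.0383, exact rank-sum test). Guide 7, at 463, 132 and 105 counts, lay farthest from the others. Without it the DMSO score was -0.21 and the call ended (adjusted p = 0.0979, exact rank-sum test). In apilimod the score was -0.34 ± 0.87 (SD, n = 10 guides), which was not called (adjusted p = 0.101, exact rank-sum test).

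SLC30A1 is the zinc exporter of the plasma membrane. It summed to 4175 counts at day 0, 4158 in DMSO and 3874 in apilimod, the fewest of the members at day 0, over 8 guides. It was lower in apilimod at -0.58 ± 0.75 (SD, n = 8 guides), and 6 guides lay under the control median (adjusted p = 0.0150, exact rank-sum test). In DMSO it was at -0.46 ± 0.97 (SD, n = 8 guides; adjusted p = 0.243, exact rank-sum test). Guides 6 and 7 were up in both arms, with 932, 1274 and 1258 counts and 733, 882 and 1141 counts, whereas guide 8 had 176, 54 and 72. The apilimod call ended when guides had to reach 300 counts at day 0, with a score of -0.33.

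The zinc transporters of the early secretory pathway, SLC30A5, SLC30A6 and SLC30A7, which supply zinc to enzymes made there, were not called in either arm. SLC30A7 had the highest member score in DMSO, 0.36 ± 0.43 (SD, n = 9 guides), with 6466 counts at day 0, 8465 in DMSO and 7715 in apilimod and 6 guides above the control median (adjusted p = 0.284, exact rank-sum test). SLC30A5, with 9300, 11620 and 10954 counts, was at 0.27 ± 0.24 (SD, n = 10 guides) in DMSO, with 6 guides above (adjusted p = 0.482, exact rank-sum test). SLC30A6 summed to 6204, 7331 and 8418 counts and scored 0.39 ± 1.23 (SD, n = 10 guides) in apilimod, with 5 guides above and 5 below the control median (adjusted p = 0.980, exact rank-sum test). Its mean rested on sparse guides, since guide 8 went from 126 counts to 158 and 752 and guide 6 from 122 to 364 and 588. Scores of SLC30A3, SLC30A4 and SLC30A8, the transporters of synaptic vesicles, endosomes and insulin granules, lay between 0.04 and 0.28 in both arms.

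Of the 10 zinc importers that act at the cell surface, 0 were called in DMSO and 1 in apilimod, and of the 4 that release zinc from organelles 1 was lower in DMSO and 2 in apilimod. Over all genes 18.9% were lower in DMSO and 29.0% in apilimod. A difference between these small groups was not tested. SLC39A7, or ZIP7, releases zinc from the endoplasmic reticulum and was the importer with the lowest score in both arms. It summed to 7409 counts at day 0, 5654 in DMSO and 5346 in apilimod. The score was -0.61 ± 0.96 (SD, n = 10 guides) in DMSO and -0.57 ± 0.81 (SD, n = 10 guides) in apilimod, with 8 of 10 guides below the control median in each (adjusted p = 0.00603 and 0.00279, exact rank-sum test).

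The abundant SLC39A7 guides were guide 5, with 1701, 1024 and 822 counts, guide 8, with 1686, 1437 and 1356, and guide 6, with 1315, 724 and 1203. Guide 3 was the most depleted, with 266 counts at day 0, 42 in DMSO and 68 in apilimod, and without it the scores were -0.37 in DMSO and -0.41 in apilimod, both still past the test. The guides above their starting share were sparse ones and, in DMSO, guide 7. Guide 9 had 107, 201 and 181 counts, and guide 2 had 101, 41 and 130, down in DMSO and up in apilimod. With all gene-targeting guides as the null the calls ended, with adjusted p = 0.214 in DMSO and 0.241 in apilimod (exact rank-sum test).

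SLC39A13, or ZIP13, moves zinc out of the Golgi and vesicles. It summed to 5233 counts at day 0, 5538 in DMSO and 4504 in apilimod. It was lower in apilimod at -0.27 ± 0.30 (SD, n = 8 guides), and 8 of 8 guides lay under the control median (adjusted p = 0.00618, exact rank-sum test), and scored 0.05 ± 0.48 (SD, n = 8 guides) in DMSO (adjusted p = 0.555, exact rank-sum test). Guides 2 and 5, left out at 97 and 47 counts, went to 120 and 149 in apilimod, and the score was -0.03 with them, without a call (adjusted p = 0.0641, exact rank-sum test). The remaining organelle importers, SLC39A9 and SLC39A11, were not called in either arm, though SLC39A9 was called lower in apilimod without its most distant guide.

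SLC39A4, or ZIP4, the importer for dietary zinc in the gut, was the surface importer called in apilimod. It summed to 6562 counts at day 0, 7284 in DMSO and 5788 in apilimod, and its apilimod score was -0.55 ± 0.87 (SD, n = 10 guides), and 8 guides lay under the control median (adjusted p = 0.00832, exact rank-sum test). In DMSO its guides split, with 6 below and 4 above and a score of -0.44 ± 1.10 (SD, n = 10 guides; adjusted p = 0.503, exact rank-sum test). In apilimod its most depleted guides were sparse ones, guide 4 at 156, 40 and 81 counts, guide 8 at 182, 43 and 74 and guide 2 at 276, 159 and 56. In DMSO guide 5, which was not sparse, was also among the most depleted, with 529, 203 and 289 counts. With a minimum of 300 counts the apilimod score was -0.12 and the call ended (adjusted p = 0.211, exact rank-sum test).

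Single guides set the means of a further pair of surface importers that were not called. SLC39A8, which carries zinc and manganese, scored -0.37 ± 1.57 (SD, n = 10 guides) in DMSO, and guide 5 alone went from 372 counts to 16 in DMSO and 14 in apilimod. Without that guide the score was 0.10 in DMSO and -0.01 in apilimod. SLC39A1 summed to 6644 counts at day 0, 6869 in DMSO and 8024 in apilimod and scored -0.33 ± 1.11 and 0.17 ± 0.84 (SD, n = 10 guides), with guide 8 at 155, 17 and 377 counts. SLC39A10, a surface importer of the same branch as SLC39A6, had 10256, 13428 and 14038 counts and scored 0.35 ± 0.40 (SD, n = 9 guides) in apilimod, with 6 guides above the control median (adjusted p = 0.615, exact rank-sum test).

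Of the 3 iron transporters, 0 were lower in DMSO and 1 in apilimod, beside 18.9% and 29.0% of all genes. SLC11A1, or NRAMP1, an exporter of iron and manganese from the phagosomes of macrophages, summed to 7421 counts at day 0, 7588 in DMSO and 6920 in apilimod. It was lower in apilimod at -0.36 ± 0.46 (SD, n = 10 guides), and 10 of 10 guides lay under the control median (adjusted p = 0.00227, exact rank-sum test). Guides 4, 7 and 10 were nonetheless slightly above their share at day 0 in apilimod, with log2 changes of 0.12, 0.04 and 0.06. The DMSO score of SLC11A1 was nearly equal, -0.38 ± 0.82 (SD, n = 10 guides), but just missed the threshold (adjusted p = 0.0550, exact rank-sum test), with guide 1 at 591, 123 and 312 counts. It passed when control guides under 200 counts were left out (adjusted p = 0.0467, exact rank-sum test). The apilimod call ended with all gene-targeting guides as the null (adjusted p = 0.390, exact rank-sum test).

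SLC11A2, or DMT1, moves iron out of endosomes and takes it up in the gut. It summed to 7455 counts at day 0, 7947 in DMSO and 6890 in apilimod, with scores of -0.01 ± 0.47 and -0.12 ± 0.53 (SD, n = 10 guides). Of its 10 guides 4 lay below the control median in DMSO and 7 in apilimod (adjusted p = 0.786 and 0.0995, exact rank-sum test). SLC40A1, ferroportin, exports iron from the cell. Its counts were 6952, 7888 and 8458, with scores of 0.00 ± 0.56 and 0.21 ± 0.50 (SD, n = 9 guides) and 4 guides below the control median in each arm (adjusted p = 0.936 and 0.877, exact rank-sum test).

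None of the 3 SLC41 genes was called in either arm, while 1 of 3 had an unadjusted p under 0.05 in DMSO and 0 of 3 in apilimod, beside 29.7% and 40.1% of all genes (exact rank-sum test). SLC41A1 had 8147 counts at day 0, 8129 in DMSO and 7701 in apilimod and scored -0.31 ± 0.77 (SD, n = 9 guides) in DMSO (adjusted p = 0.0958, exact rank-sum test), and it was called lower there with a count minimum of 30 or none. SLC41A3 was at -0.12 in DMSO and -0.09 in apilimod. SLC41A2 had the highest member score in apilimod, 0.51 ± 0.54 (SD, n = 9 guides), with 7 guides above the control median and 11125, 13819 and 14824 counts (adjusted p = 0.352, exact rank-sum test). Its DMSO score was 0.28 ± 0.36 (SD, n = 9 guides), and 5 of 9 guides lay under the control median (adjusted p = 0.667, exact rank-sum test).

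The direct comparison of apilimod with DMSO called 0 of 32 members, beside 0.573% of all genes lower and 0.0674% higher. For this test each arm was scaled to put the median control guide at 0 and the median of a list of nucleotide synthesis genes at -1, and the log2 ratios given here are unscaled. At an unadjusted p under 0.05 there were 3 of 32 members, SLC30A9, SLC39A13 and SLC39A9, beside 11.0% of all genes (exact rank-sum test). SLC30A9 was the lowest, with a ratio of -0.76 ± 0.84 (SD, n = 9 guides) and a z score, the scaled difference in SDs over all genes, of -2.25. Of its 9 guides 8 were below the control median, and the test gave an unadjusted p of 0.00432 and an adjusted p of 0.167 (exact rank-sum test). Without guide 3 the ratio was -0.51. The gene was called lower under 3 of 13 alternatives, those with no count minimum, a minimum of 30 counts or no scaling, with adjusted p-values from 0.0142 to 0.752 over the 13 (exact rank-sum test).

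SLC39A13 followed with a ratio of -0.32 ± 0.32 (SD, n = 8 guides; z = -1.15), and 6 guides lay under the control median (adjusted p = 0.411, exact rank-sum test). SLC39A9, a Golgi importer, had a ratio of -0.12 ± 0.97 (SD, n = 8 guides; adjusted p = 0.328, exact rank-sum test), where the median guide was at -0.47 and the highest at 2.22. SLC39A11, with 7044 counts at day 0, 7697 in DMSO and 7069 in apilimod, was at -0.23 ± 0.47 (SD, n = 10 guides; z = -0.89), with 6 guides below (adjusted p = 0.566, exact rank-sum test).

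The members with the highest z scores owed much of their mean to single guides. SLC39A1 was at 0.51 ± 1.43 (SD, n = 10 guides; z = 1.88), with 7 guides above the control median (adjusted p = 0.742, exact rank-sum test), and at 0.07 without guide 8. SLC30A6 was at 0.34 ± 0.85 (SD, n = 10 guides; z = 1.15), with 7 guides above (adjusted p = 0.641, exact rank-sum test), and at 0.13 without guide 8. SLC31A2 was at 0.12 ± 1.26 (SD, n = 9 guides; z = 0.76; adjusted p = 0.878, exact rank-sum test) and at -0.27 without guide 2, which was rarer in DMSO than in apilimod. By the unscaled ratio, SLC41A2 and SLC40A1 stood above SLC31A2, at 0.24 ± 0.53 and 0.21 ± 0.73 (SD, n = 9 guides; adjusted p = 0.756 and 0.965, exact rank-sum test), with 6 and 5 of 9 guides above the control median. The genes called in both arms other than SLC30A9 had ratios near 0, with -0.05 ± 0.72 (SD, n = 10 guides) for SLC31A1, 0.04 ± 0.81 (SD, n = 10 guides) for SLC39A7 and -0.07 ± 0.57 (SD, n = 10 guides) for SLC30A2.

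Other genes of metal handling were read from a list of 50 symbols, of which 28 were measured. In DMSO 10 of the 28 were lower and in apilimod 12, with 0 higher in either. These shares are 35.7% and 42.9%, beside 18.9% and 29.0% of all genes. The list was chosen with earlier results of these data known, so the shares are no test of metal handling genes as a group. Of the copper genes 5 of 9 were lower in DMSO and 4 of 9 in apilimod. COX17, COX11, COX19 and SCO2 serve the delivery of copper to cytochrome c oxidase. COX17 was at -1.75 ± 1.08 (SD, n = 10 guides) in DMSO and -2.56 ± 2.44 (SD, n = 10 guides) in apilimod, and SCO2 at -1.73 ± 0.97 and -1.55 ± 1.12 (SD, n = 8 guides). The median COX17 guide was at -1.73 in DMSO and -1.85 in apilimod, where the lowest guide was at -7.97. COX11 was at -0.77 and -0.98, and COX19 was lower in DMSO at -0.74 and not called in apilimod. The metalloreductase STEAP3, which reduces iron and copper, was at -0.79 in both arms.

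Of the 11 iron genes 1 was lower in DMSO and 3 in apilimod, or 9.09% and 27.3%, beside 18.9% and 29.0% of all genes. FLVCR1, described as an exporter of heme and a carrier of choline, was lower in both, at -0.61 and -0.97. SLC25A28 and SLC25A37, the mitoferrins that carry iron into mitochondria, were lower in apilimod at -0.59 and -0.36. For SLC25A28 the ratio of apilimod to DMSO was -0.45 ± 0.27 (SD, n = 9 guides), with an adjusted p of 0.0642 (exact rank-sum test), and 0 of the 28 genes were called in that comparison. For magnesium, the channel kinase TRPM7 was lower at -0.99 in DMSO and -0.72 in apilimod, and MAGT1 was lower in apilimod at -0.39. Of the 4 genes listed under zinc and manganese 3 were lower in each arm, or 75.0%, beside the same shares of all genes. As said above, the list was chosen with earlier results known. The zinc-sensing transcription factor MTF1 was at -1.40 ± 1.55 and -1.27 ± 1.32 (SD, n = 10 guides), with median guides at -0.79 and -0.90. The Golgi calcium and manganese pump ATP2C2 was at -0.39 and -0.47. The related pump ATP2C1 was lower in DMSO at -0.53, and ATP13A1, a P-type ATPase of the endoplasmic reticulum, in apilimod at -0.73. With all gene-targeting guides as the null, 5 of the 28 were lower in DMSO and 6 in apilimod, beside 7.48% and 7.58% of all genes, namely SCO2, COX17, STEAP3, TRPM7 and MTF1 in both and COX11 in apilimod.

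Taken singly, member guides spread like the other gene-targeting guides. In DMSO 176 of 302 were below the control median, or 58.3% beside 61.1% of all gene-targeting guides, and in apilimod 207, or 68.5% beside 67.1%. Under the lowest 2.5% of control guides lay 13.6% of member guides in DMSO and 14.2% in apilimod, beside 13.5% and 14.5% of all. The highest 2.5% of control guides began at 0.85 in DMSO and at 2.41 in apilimod. Above these bounds lay 3.64% and 0.331% of member guides, beside 3.62% and 0.282% of all. Control guides thus reached higher in apilimod, which limits what the 0 higher calls there can show.

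The spread between member guides was wider where the starting count was low. For the 22 guides with 100 to 200 counts at day 0 the SD of the log2 change was 1.28 in DMSO and 1.29 in apilimod, and for the 93 guides with 1000 or more it was 0.50 and 0.57. Among control guides, the 20 with 100 to 200 counts had a median of 1.91 in apilimod and -0.06 in DMSO, while member guides of that depth were at 0.41 and -0.08. Sparse control guides were thus higher in apilimod than member guides of like depth. The deeper control guides were higher too, with a median of 0.52 beside -0.07 for member guides at 200 to 500 counts. At 500 to 1000 counts the medians were 0.41 and -0.004, and at 1000 or more 0.13 and -0.08. An alternative left out only the 20 control guides under 200 counts, so it does not show the part of the deeper ones in the apilimod calls. Leaving out control guides under 200 counts gave 9 members lower in apilimod and 6 in DMSO, beside 27.0% and 19.8% of all genes. Of the 18 member guides under the count minimum, with 29 to 99 counts at day 0, 2 were more than 2-fold up per library depth in DMSO and 9 in apilimod, and 4 and 5 more than 2-fold down.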

How the data were processed

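The authors deposited raw read counts per guide, 1 library per group. The submitters' processing notes name bcl2fastq, cutadapt 4.1, Bowtie2 2.4.5 and MAGeCK 0.5.9.5. Guides carry no molecular identifiers, so PCR copies were counted. The series table and the library files held the same counts (0 differed).

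From these counts, guides with at least 100 initial counts and genes with at least 6 such guides were kept. A pseudocount of 1 was added, counts were divided by library totals, and log2 changes were averaged over guides. For apilimod against DMSO, arms were scaled on control guides and on 26 nucleotide synthesis genes, whose median score was -1.63 in DMSO and -1.77 in apilimod. Genes were compared with control guides by the exact two-sided rank-sum test, with Benjamini-Hochberg adjustment over all 2969 genes. The test was tried on simulated counts, where guides drifted like control guides and known changes were set in DMSO. Only calls of DMSO against the initial population were checked there. Python 3.11.15, numpy 2.4.6, pandas 2.3.3 and scipy 1.17.1 were used, with GENCODE 44 for gene positions on hg38.

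The members and gene lists were chosen with earlier results of these data known. Full values are given for members called in any comparison, the 3 lowest and 3 highest in each, and SLC31A1, SLC11A2, SLC40A1, SLC30A1 and SLC39A7. Alternatives covered the count minimum, guides per gene, pseudocount, normalization, null guides, scaling, the median over guides and the most distant guide. Guide sequences were not used here.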

Additional observations from a re-analysis of the deposited data

How the results depend on the processing

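With all gene-targeting guides as the null, 2 members were lower in DMSO and 2 in apilimod, in place of 5 and 9. Under the other 10 alternatives for each arm, 4 to 6 were lower in DMSO and 7 to 10 in apilimod. Among these, median-of-ratios normalization, the median over guides and the series table could not change the calls in either arm. For apilimod against DMSO, 1 member (SLC30A9) was called with no count minimum, with a minimum of 30 and with no scaling of the arms, in place of 0, and 0 under the other 10 alternatives. Scaling on N-glycan precursor genes moved the calls over all genes from 17 lower and 2 higher to 10 lower and 27 higher, and no scaling gave 36 and 1. Over the 19 genes named by the rule no called score changed sign. Among these 19 genes, calls ended in 16 cases and arose in 5, of 665, a total that includes settings that could not change a call. Outside them, SLC41A1 was called lower in DMSO with a count minimum of 30 or none. SLC39A9 was called lower in apilimod without its most distant guide. No paired analysis was possible because each group is 1 library. For the same reason no library could be left out, and the depth limits what sparse guides show.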
